A study of Saccharomyces cerevisiae with 8 samples.

Results

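The genes described here encode the proteins of the large (60S) subunit of the cytosolic ribosome of *Saccharomyces cerevisiae*. They were chosen by name, as the open reading frames (ORFs) whose symbol is RPL with a number and an optional A or B, together with the P-protein genes *RPP0*, *RPP1A*, *RPP1B*, *RPP2A* and *RPP2B*. The rule found 78 of the 6212 ORFs in the value table. A further 3 genes of the rule, *RPL36B*, *RPL41B* and *RPL43B*, were not analysed here. No measured value was used to choose the members.

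The arrays compared mutants with the wild type (wt) on 2-colour slides of amplified ORFs, so each value is the log2 ratio of mutant over wt on 1 array. The *ptc1 ptc6* cells carried *ptc1::NAT* and *ptc6::kanMX4*, the *ptc6* cells carried *ptc6::kanMX4* alone, and wt was the parental strain. All were in the BY4741 background, which lacks *HIS3*, *LEU2*, *MET15* and *URA3*, and all were untreated cells grown exponentially at 28 °C in YPD rich medium. Each mutant had 4 arrays, which are 2 biological replicates with a dye swap. For *ptc1 ptc6* cells, experiments 1 and 2 were replicate 1, and experiments 3 and 4 were replicate 2. For *ptc6* cells, experiments 1 and 2 were replicate 1, and experiments 5 and 6 were replicate 2. The mutant was labelled with Cy3 in the odd experiments and with Cy5 in the even ones. The dye swap repeats the same RNA, so n = 2 per mutant, and SDs below are between the means of these 2 replicates. A fixed mass of total RNA was labelled, so the ratios are relative to total RNA and do not give a level per cell.

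The large subunit forms the peptide bond, carries the tunnel through which the new protein leaves, and holds the flexible stalk that recruits the translation factors. Most of its proteins are encoded in yeast by a pair of genes, named A and B, that give almost the same protein. Their promoters are typically bound by Rap1 and by Fhl1 with its co-activator Ifh1, and they are transcribed together when the TORC1 and protein kinase A pathways signal growth. Both Ptc1 and Ptc6 belong to the type 2C family of protein phosphatases. The study asked how losing Ptc6, alone or with Ptc1, changes yeast physiology and signalling through the TOR pathway.

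The deleted genes fitted the labels. *PTC6* had a mean log2 ratio of -3.94 ± 1.11 in *ptc1 ptc6* cells (2 arrays with a value) and of -2.34 ± 0.11 in *ptc6* cells (3 arrays). *PTC1* was at -2.56 ± 0.18 in *ptc1 ptc6* cells (4 arrays) and at 0.22 ± 0.26 in *ptc6* cells (3 arrays). Between 4050 and 5537 ORFs had a value on an array. Of the 78 members, 76 had a value on at least 1 array and 71 on all 8, whereas *RPL26A* and *RPL38* had none. A test needed a value in both replicates, which left 75 members in *ptc1 ptc6* cells, 74 in *ptc6* cells and 73 for the difference between the mutants. *RPL17A* was not tested in *ptc1 ptc6* cells, and *RPL13B* and *RPL36A* were not tested in *ptc6* cells.

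One property of the table touched some members. On 6 of the 8 arrays, at least 8 of 12 genes with very abundant transcripts, such as *ENO2*, *TDH3* and *PGK1* of glycolysis, carried the same log2 ratio to within 0.0015. This list of 12 was written after the values had been seen. The shared value was -0.209, -0.164, 0.332 and -0.690 in *ptc1 ptc6* experiments 1 to 4, and 0.653 and -0.038 in *ptc6* experiments 5 and 6. It was held by between 18 and 51 ORFs on an array. *RPL10* sat at it on 3 of the 4 *ptc1 ptc6* arrays, *RPL15A*, *RPL3* and *RPP0* on 2 each, and *RPL4B* and *RPL14B* on 1 each. Of the *ptc6* arrays, only experiment 5 had members at it, which were *RPL10* and *RPL15A*. The brightness of the spots was not used here, and its part in these values was not tested.

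In *ptc1 ptc6* cells the transcripts of the large subunit proteins were lower than in wt as a group. Of the 75 members tested, 66 were called lower and 0 higher, at an adjusted p under 0.05 (limma, Benjamini-Hochberg over all ORFs). Over all 4596 ORFs tested, 8.49% were called lower and 5.64% higher, which is 390 and 259 ORFs. With each array centred on its median, 264 of 567 calls over all ORFs were lower, and 62 members were called, all lower. The median log2 ratio of the members was -0.71, which is 0.61 times the wt level, and it was -0.66 in replicate 1 and -0.78 in replicate 2. The median over all ORFs was -0.05. All 75 means were below 0, between -1.03 for *RPL25* and -0.27 for *RPL15A*.

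The calls rested on 2 replicates, with a spread shared with the *ptc6* replicates. A fit without 1 *ptc1 ptc6* replicate takes its spread from the *ptc6* replicates alone. It therefore cannot show how far the calls depend on each *ptc1 ptc6* replicate. The median of the members was -0.67 without replicate 2 and -0.78 without replicate 1. The direction was visible array by array, with 66 of the 73 members measured on 4 arrays below 0 on each of them, against 29.9% of all ORFs. The 7 others were *RPL10*, *RPL15A*, *RPL22B*, *RPL3*, *RPL36A*, *RPL41A* and *RPP0*. The median of the members was -0.78, -0.55, -0.81 and -0.77 in experiments 1 to 4, and the median of all ORFs on these arrays lay between -0.10 and -0.01. Experiment 2 was thus the array with the smallest shift.

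**Figure D1:**
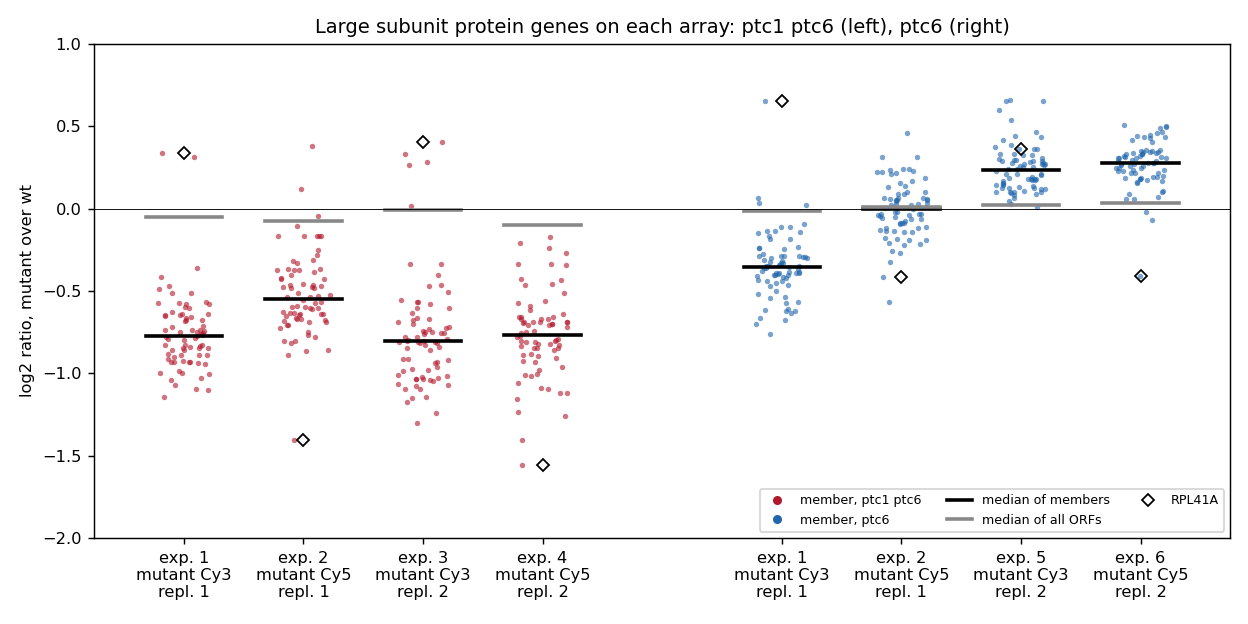
Log2 ratio of mutant over wt (vertical axis) of every large subunit protein gene on each of the 8 arrays, with *ptc1 ptc6* arrays on the left and *ptc6* arrays on the right. Black bars are medians of the members, grey bars medians of all ORFs and diamonds *RPL41A*. Between 70 and 74 members lie below 0 on each *ptc1 ptc6* array, whereas the medians in *ptc6* cells run from -0.356 in experiment 1 to 0.277 in experiment 6.

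These genes made up a large share of what was lower in *ptc1 ptc6* cells. They were 75 of the 4596 ORFs tested, but 66 of the 390 ORFs called lower (16.9%). They were also 17 of the 50 ORFs with the lowest ratios and 57 of the lowest 200. This was not particular to the large subunit, as small subunit protein genes were 40 of the 390 (10.3%) and 37 of the lowest 200. The change in the large subunit genes was broad but moderate in size. By the 2-fold rule of the study's methods, applied to the mean over arrays, 1 member passed, *RPL25*, as did 0.294% of all ORFs. The count moved with the replicate used, with 9 members without replicate 1 and 0 without replicate 2, and it was 0 after centring the arrays or when each replicate had to pass. Just outside lay *RPL22A*, *RPL26B* and *RPL42A*, with array means of -0.99, -0.99 and -0.96.

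*RPL25* encodes a protein at the rim of the exit tunnel where the signal recognition particle docks. Its log2 ratios were -1.15, -0.80, -1.15 and -1.01 in *ptc1 ptc6* experiments 1 to 4, against -0.67, -0.13, 0.37 and 0.46 in *ptc6* experiments 1, 2, 5 and 6. The *ptc1 ptc6* arrays did not overlap with the *ptc6* arrays. Its mean was -1.03 ± 0.07 in *ptc1 ptc6* cells (SD, n = 2; adjusted p = 0.0278 by limma), a level 0.49 times that of wt, and 0.01 ± 0.57 in *ptc6* cells. *RPL22A*, the main gene for a protein that yeast can grow without, came next. It was at -1.09, -0.78, -1.30 and -0.81 in *ptc1 ptc6* cells, against -0.70, 0.24, 0.36 and 0.35 in *ptc6* cells. Here too each *ptc1 ptc6* array lay below each *ptc6* array, and the mean was -0.99 ± 0.08 in *ptc1 ptc6* cells (adjusted p = 0.0270).

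*RPL26B*, for another protein near the tunnel exit, had -0.84, -0.86, -1.24 and -1.01 in *ptc1 ptc6* cells and a mean of -0.99 ± 0.19 (adjusted p = 0.0270). *RPL42A*, whose protein joins the subunit late in its maturation, had -0.71, -0.77, -0.94 and -1.41 and a mean of -0.96 ± 0.30 (adjusted p = 0.0346). In both genes replicate 2 was the lower replicate. The rest of the 8 lowest members were *RPL9A*, *RPL27A*, *RPL23B* and *RPL29*, with means between -0.94 and -0.93. *RPL23B* encodes a protein of the face that meets the small subunit, and *RPL29* a small protein that joins late. In replicate 2 the ratios of *RPL9A*, *RPL27A* and *RPL23B* were all between -1.23 and -1.06, whereas in replicate 1 they were between -0.94 and -0.54.

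**Figure D2:**
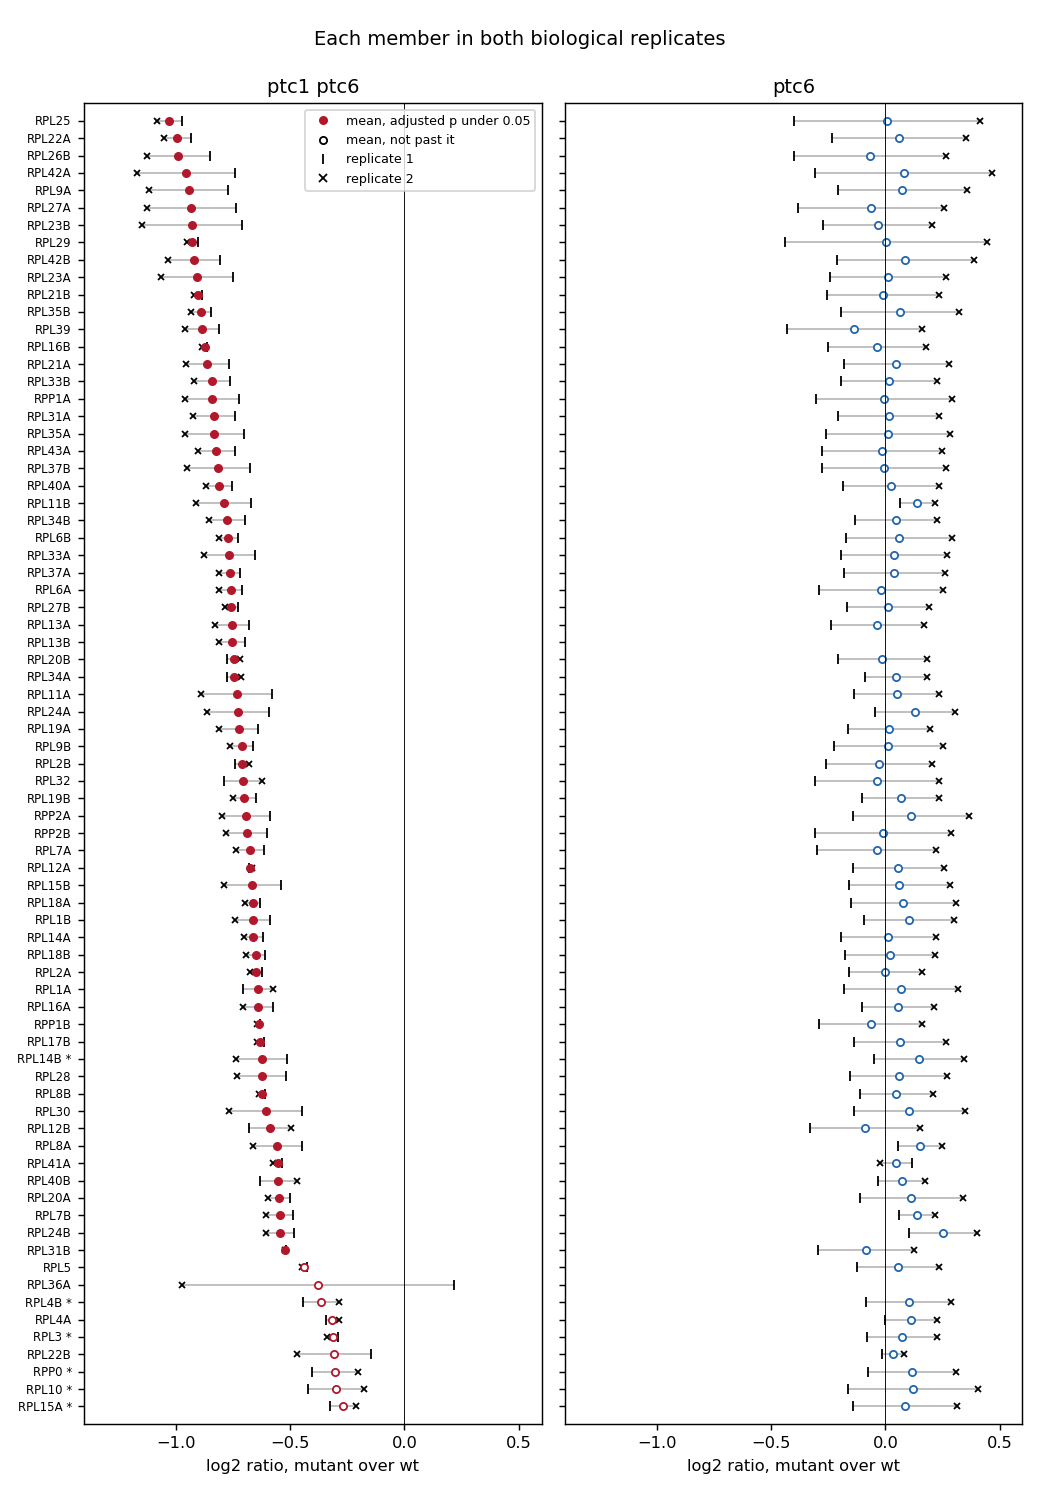
Mean log2 ratio of mutant over wt (horizontal axis) of the 75 members tested in *ptc1 ptc6* cells, ordered by that mean, in *ptc1 ptc6* (left) and *ptc6* (right). Bars and crosses are the means of replicates 1 and 2, filled circles mark an adjusted p under 0.05, and an asterisk marks a gene at a shared value on at least 1 *ptc1 ptc6* array. All 75 means are below 0 on the left, and on the right the replicates lie on opposite sides of 0 for most genes.

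At the other end stood the 9 members that were tested and not called, *RPL5*, *RPL36A*, *RPL4B*, *RPL4A*, *RPL3*, *RPL22B*, *RPP0*, *RPL10* and *RPL15A*. Their means were between -0.44 and -0.27. The 4 members at a shared value on 2 or more arrays were all among them. *RPL10* encodes the protein near the catalytic centre whose addition is among the last steps of assembly. It was at -0.68, -0.16, 0.33 and -0.69 in *ptc1 ptc6* experiments 1 to 4, and the last 3 of these values are the shared ones. On its remaining array, experiment 1, it was thus lower than in wt by an amount near the median of the members. *RPP0*, the base of the stalk, was at -0.65, -0.16, 0.29 and -0.69, with the shared value in experiments 2 and 4. *RPL3*, which reaches into the catalytic centre, was at -0.42, -0.16, 0.02 and -0.69, and *RPL15A* at -0.49, -0.16, 0.26 and -0.69. Experiment 3 was the array on which these 4 genes were at or above 0. Leaving out all shared values, 66 of 74 members tested were called, the same 66. *RPP0*, *RPL3* and *RPL15A* then had smaller changes, unlike *RPL10*. Their means over the 2 remaining arrays were -0.18, -0.20 and -0.11, against -0.30, -0.31 and -0.27 over all 4. The part of the shared values in the missed calls was not tested.

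The other uncalled members differed from each other. *RPL36A* was at 0.32 and 0.12 in replicate 1 and at -0.98 and -0.96 in replicate 2, so its replicates did not overlap and its mean of -0.38 ± 0.84 describes neither (adjusted p = 0.397). *RPL4A* and *RPL4B* encode the protein whose long loop lines the tunnel. *RPL4A* was at -0.64, -0.05, -0.40 and -0.17, and *RPL4B* at -0.72, -0.16, -0.34 and -0.24, both below 0 on each array but with smaller mean changes than most members (adjusted p = 0.101 and 0.102). *RPL5*, for the protein that carries the 5S rRNA into the subunit, was the closest to the threshold, with a mean of -0.44 ± 0.01 and an adjusted p of 0.0613.

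Grouped by place in the subunit or by step of assembly, each set of members had a median well below 0 in *ptc1 ptc6* cells. The 7 members that join late in the cytoplasm (*RPL24A*, *RPL24B*, *RPL29*, *RPL40A*, *RPL40B*, *RPL42A* and *RPL42B*) were all called lower, with a median of -0.81. Of the 14 members at the exit tunnel and its rim, 12 were tested and 10 called, with a median of -0.78, from -1.03 for *RPL25* to -0.32 for *RPL4A*. *RPL39*, a very small protein inside the tunnel, was at -0.74, -0.89, -0.67 and -1.26 with a mean of -0.89 ± 0.11 (adjusted p = 0.0270). The particle of 5S rRNA had 2 of 3 called, *RPL11A* and *RPL11B*, with a median of -0.73. The stalk and its base had 6 of 7 called, with a median of -0.67. Near the peptidyl transferase centre 2 of 4 were called, *RPL2A* and *RPL2B*, with a median of -0.48, and the others in that set, *RPL3* and *RPL10*, are those with shared values. The 42 tested members outside these sets had 39 calls and a median of -0.73. In *ptc6* cells the medians of the same sets lay between -0.01 and 0.08.

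**Figure D3:**
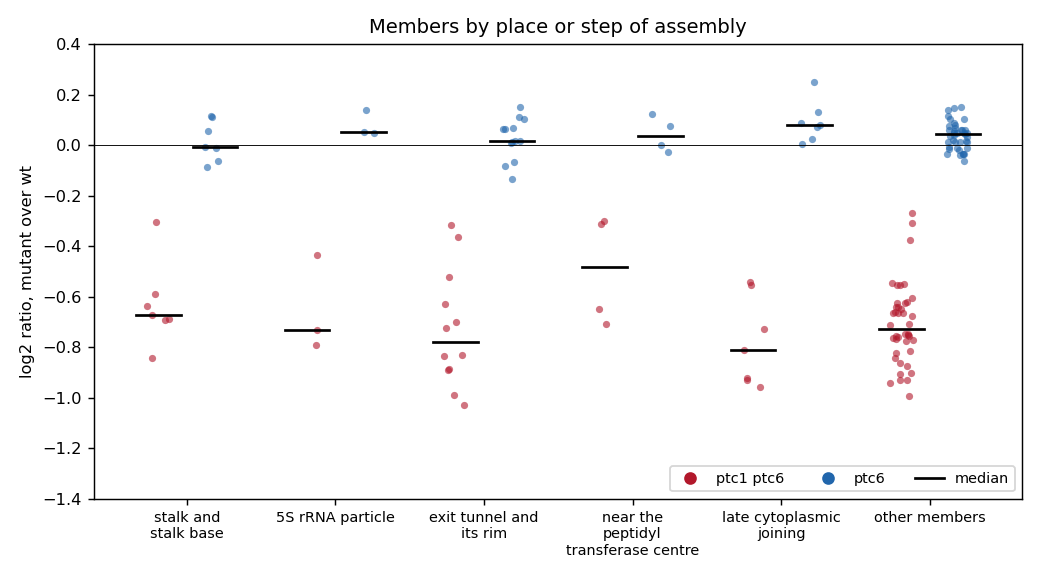
Mean log2 ratio of mutant over wt (vertical axis) of members by place in the subunit or step of assembly, *ptc1 ptc6* left of *ptc6* within each set, with each point 1 gene and each bar the median of the set. The *ptc1 ptc6* medians lie between -0.81 and -0.48 and the *ptc6* medians between -0.01 and 0.08.

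Within the stalk, the acidic P-proteins P1 and P2, which contact elongation factors and are attached to P0, were lower along with the rest. *RPP1A* was at -0.85, -0.60, -1.09 and -0.82 in *ptc1 ptc6* cells (mean -0.84 ± 0.17, adjusted p = 0.0292). *RPP1B* was at -0.95, -0.32, -1.02 and -0.27 (mean -0.64 ± 0.01, adjusted p = 0.0342). Its arrays with the mutant in Cy3 were the low ones in both replicates. *RPP2A* and *RPP2B* had nearly the same values on each array, with means of -0.69 ± 0.15 and -0.69 ± 0.13 (adjusted p = 0.0351 and 0.0399). In *ptc6* cells these 4 genes had means between -0.06 and 0.11, none of them called.

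Among the 11 members that exist as a single gene, 10 were tested and 6 were called lower in *ptc1 ptc6* cells, with a median of -0.62. The called ones were *RPL25*, *RPL29*, *RPL39*, *RPL32* (-0.71 ± 0.12), *RPL28* (-0.62 ± 0.15) and *RPL30* (-0.61 ± 0.23). *RPL30* encodes a protein that binds its own transcript and limits its splicing. The 4 not called were *RPL3*, *RPL5*, *RPL10* and *RPP0*, 3 of which had shared values. Of the 65 members tested that belong to an A and B pair, 60 were called and the median was -0.72.

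In *ptc6* cells 0 of the 74 members tested were called, and 0% of all 4824 ORFs were. The deleted *PTC6*, at a mean of -2.34, was itself not called (adjusted p = 0.407 by limma). The fit shared 1 spread between the mutants, and *PTC6* had an SD of 1.11 in *ptc1 ptc6* cells against 0.11 in *ptc6* cells. Its missed call therefore does not show how well the test finds changes in the members. With n = 2 per mutant, the 0 calls do not show that the members were unchanged. At an unadjusted p under 0.05, limma found 0 members and 386 ORFs in all. The median of the members was 0.05, but this mean over replicates hides a split. It was -0.18 in replicate 1 and 0.25 in replicate 2, and by array -0.356, -0.005, 0.2345 and 0.277 in experiments 1, 2, 5 and 6. A total of 69 of the 74 members was below 0 in replicate 1 and above 0 in replicate 2, against 31% of all ORFs with 4 arrays. The exceptions were *RPL11B*, *RPL24B*, *RPL41A*, *RPL7B* and *RPL8A*. Within replicate 1 the dye orientations also differed, with 72 of 76 members below 0 in experiment 1 and 38 of 75 in experiment 2. Replicate 2 had 0 of 74 and 3 of 74 below 0.

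No member passed 2-fold in *ptc6* cells, where 0.0549% of all ORFs did so downwards. The highest means were 0.25 ± 0.21 for *RPL24B*, 0.15 ± 0.14 for *RPL8A*, 0.15 ± 0.27 for *RPL17A* and 0.15 ± 0.28 for *RPL14B*. The lowest were -0.14 ± 0.42 for *RPL39*, -0.09 ± 0.34 for *RPL12B*, -0.08 ± 0.29 for *RPL31B* and -0.07 ± 0.47 for *RPL26B*. Except for *RPL24B* and *RPL8A*, these means were smaller than their own SD between replicates. *RPL24B* was above 0 on all 4 arrays, at 0.04, 0.17, 0.30 and 0.51, with the smallest adjusted p of any member in *ptc6* cells, 0.614.

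The difference between the mutants, *ptc1 ptc6* minus *ptc6*, was below 0 for all 73 members tested, with a median of -0.74 and a range from -1.06 for *RPL22A* to -0.34 for *RPL22B*. None passed the threshold after adjustment, as was the case for all but 9 ORFs, of which 2 (0.0459%) were lower. The smallest adjusted p of a member was 0.0966. Before adjustment, 67 of the 73 members were under 0.05 by limma, as were 1060 of all 4361 ORFs. The split between the *ptc6* replicates enters the spread on which this test rests. Every *ptc1 ptc6* array lay below every *ptc6* array in 49 of the 71 members with 8 values, against 16.9% of all ORFs. *RPL11B* was one of them, at -0.65, -0.69, -0.81 and -1.01 in *ptc1 ptc6* cells and -0.19, 0.31, 0.28 and 0.15 in *ptc6* cells, a difference of -0.93 ± 0.16 (SE; adjusted p = 0.0966). Other fits gave other counts. A random block for the replicate over 8 separate arrays called 61 members among 799 ORFs, and 55 were called among 338 where values on all 4 arrays of each mutant were required. The block correlation was estimated at -0.0855, so the first of these fits counted the dye swaps of 1 RNA as nearly independent arrays. Whether the 2 sets used the same wt RNA is not stated.

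The order of the members was kept only in part between replicates and arrays. Over 75 members the replicate means of *ptc1 ptc6* cells gave Pearson r = 0.57 and Spearman rho = 0.68. Arrays with the mutant in the same dye gave rho = 0.60 for Cy3 and 0.72 for Cy5, whereas the dye swaps within replicates 1 and 2 gave 0.17 and 0.30. Without *RPL41A* the same-dye values were 0.58 and 0.71 and the dye-swap values 0.22 and 0.35. These are descriptions across genes, which are not independent replicates and share their arrays. Without *RPL41A*, Pearson r was 0.39 for Cy3 and 0.65 for Cy5, and 0.36 and 0.26 for the dye swaps of replicates 1 and 2. By rho, the order in *ptc1 ptc6* cells was thus more alike between arrays of the same dye orientation than between dye swaps. By r, Cy3 was close to the dye swap of replicate 1. The cause was not tested. The median of the members was -0.79 in Cy3 and -0.66 in Cy5 in *ptc1 ptc6* cells, and it changed sign in *ptc6* cells, at -0.06 in Cy3 and 0.13 in Cy5. The mean with the mutant in Cy3 minus that with the mutant in Cy5 had a median of -0.13 in *ptc1 ptc6* cells, where the Cy3 arrays were the lower ones in 53 of 73 members, and of -0.21 in *ptc6* cells. The median over all ORFs was 0.02 in *ptc1 ptc6* cells and -0.03 in *ptc6* cells. In the *ptc6* replicates the members had no common order, with r = -0.16. Gene length and the ratio in *ptc1 ptc6* cells gave r = 0.09 across 75 members.

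*RPL41A*, for the smallest ribosomal protein, shows how far the dye could reach, and was singled out after its values had been seen. In *ptc1 ptc6* cells it was at 0.34 and 0.40 with the mutant in Cy3 and at -1.41 and -1.56 with the mutant in Cy5. In *ptc6* cells it was at 0.65 and 0.36 in Cy3 and at -0.42 and -0.41 in Cy5. Its sign followed the dye on all 8 arrays. Because the dye-swapped values were averaged before the test, its replicate means of -0.53 and -0.58 were close together, and it was called lower with an adjusted p of 0.0282. With all 8 arrays in the fit and the replicate as a random block it was not called. Its spot stands for a gene of 78 bp. *RPL31B* had the largest contrast in the other direction, with -0.93 and -0.84 in Cy3 and -0.11 and -0.21 in Cy5. *RPL15B* was among those with lower values in Cy5, at -0.36 and -0.46 in Cy3 and -0.72 and -1.12 in Cy5.

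**Figure D4:**
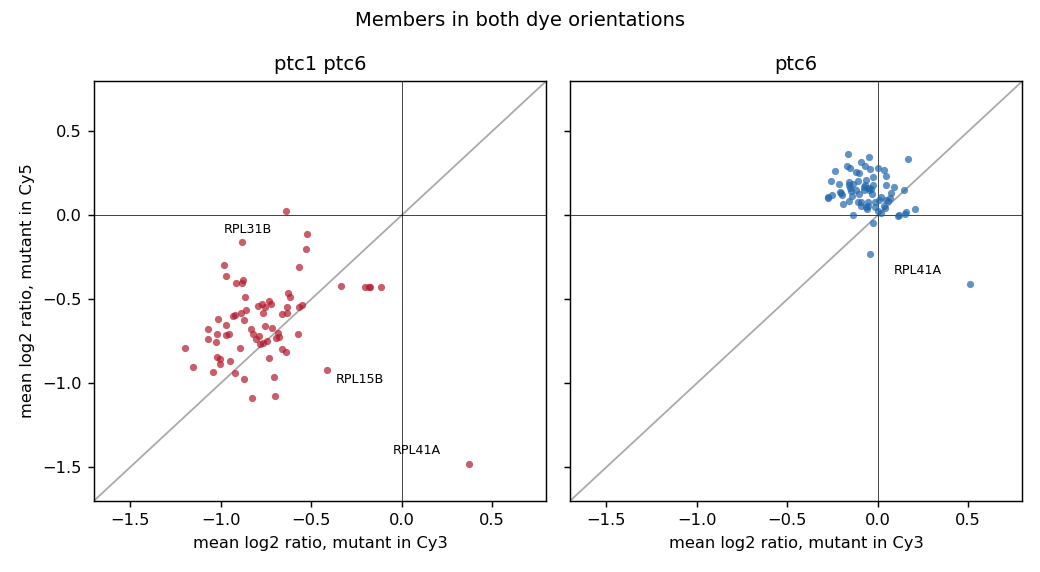
Mean log2 ratio of each member with the mutant in Cy3 (horizontal axis) and in Cy5 (vertical axis), in *ptc1 ptc6* cells (left) and *ptc6* cells (right), with the line of equality in grey. Most *ptc1 ptc6* points lie below 0 on both axes, and *RPL41A* lies apart in both mutants. On the left, the 4 points near -0.43 on the vertical axis and between -0.20 and -0.11 on the horizontal are *RPL3*, *RPL10*, *RPL15A* and *RPP0*. *RPL36A*, which held no shared value, lies close by at -0.33 (horizontal) and -0.42 (vertical).

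The A and B paralogs could be compared in 30 of the 32 pairs with both ORFs in the table. In *ptc1 ptc6* cells the median absolute difference between the log2 ratios of A and B was 0.06, and 26 of the 30 pairs differed by less than 0.25. Members that are not partners differed by a median of 0.17. The 0.06 is of differences averaged over both replicates, and with replicate 1 or 2 left out the median of the pairs was 0.126 or 0.0995. The gene with the lower ratio was A in 15 pairs and B in 15. Partners did not track each other closely across pairs (r = 0.27 between the means of A and B), and only 16 pairs had a difference of the same sign in both replicates. This r includes the *RPL22* and *RPL15* pairs, which had the largest differences, and was not computed without them. The spots are whole ORFs, and those of near-identical paralogs can bind each other's cDNA. How far the A and B spots share their signal was not tested.

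The pair with the largest difference was *RPL22*. *RPL22A* minus *RPL22B* was -0.42, -1.16, -0.70 and -0.47 in *ptc1 ptc6* experiments 1 to 4, with a mean of -0.69 ± 0.15 (SD, n = 2). *RPL22A* was lower on each array, but *RPL22B* itself ranged from -0.67 in experiment 1 to 0.38 in experiment 2. In *ptc6* cells the difference was -0.57, 0.13, 0.26 and 0.29, with a mean of 0.03 ± 0.35. The *RPL15* pair came next, with A less lowered by 0.40 ± 0.26, and here *RPL15A* carries shared values in experiments 2 and 4. *RPL31A* minus *RPL31B* had a mean of -0.31 ± 0.13, but its sign changed with the dye, at 0.25 and 0.11 in Cy3 and -0.70 and -0.91 in Cy5.

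*RPL40A* was below *RPL40B* by 0.26 ± 0.42 with only 2 arrays to compare. *RPL16A* was above *RPL16B* by 0.23 ± 0.08, and *RPL9A* minus *RPL9B* was -0.23 ± 0.17. The difference kept its sign on 4 of 4 arrays in 5 of 29 pairs, *RPL27*, *RPL22*, *RPL7*, *RPL9* and *RPL20*. The smallest mean differences were in *RPL13*, *RPP2* and *RPL6*, all within 0.01 of 0. The differences between A and B were described and not tested.

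In *ptc6* cells the median absolute difference of the pairs was 0.06 as well, next to 0.06 between members that are not partners. The largest was -0.18 ± 0.26 for *RPL7A* minus *RPL7B*, and the sign was the same on all 4 arrays in 1 of 30 pairs, *RPL20*.

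**Figure D5:**
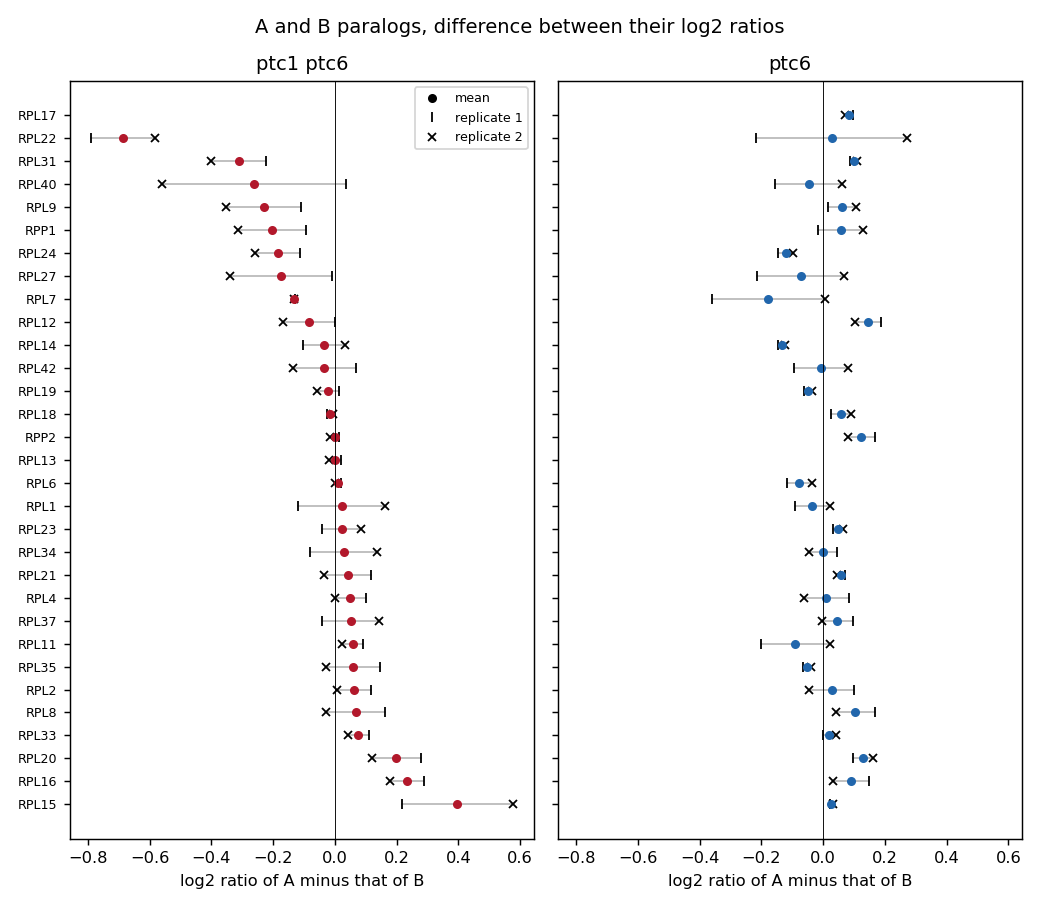
Log2 ratio of the A gene minus that of the B gene (horizontal axis) for each pair, in *ptc1 ptc6* (left) and *ptc6* (right), with circles for means, bars for replicate 1 and crosses for replicate 2. Most pairs lie near 0, and *RPL22* at -0.69 in *ptc1 ptc6* is the farthest from it.

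Other genes of the ribosome place these values. The small subunit proteins of the cytosolic ribosome had 40 of 49 tested genes called lower in *ptc1 ptc6* cells, with a median of -0.71, as in the large subunit proteins. In *ptc6* cells their medians were -0.24 in replicate 1 and 0.24 in replicate 2, the same split. The proteins of the large subunit of the mitochondrial ribosome, which is made from other genes, had 0 of 28 called in *ptc1 ptc6* cells and a median of 0.07. Their median in *ptc6* cells was 0.10 in replicate 1 and -0.06 in replicate 2, the opposite order.

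The dedicated chaperones of single 60S proteins and the factors that hold their places or escort the subunit are made in the same assembly line. Of the 12 tested, 2 were lower in *ptc1 ptc6* cells, *MRT4* (-0.56 ± 0.04, adjusted p = 0.0399) and *RLP7* (-0.54 ± 0.02, adjusted p = 0.0317). Mrt4 occupies the site of P0 and Rlp7 resembles Rpl7, both in precursors of the subunit. All 12 means were below 0 with a median of -0.32, less far than the ribosomal proteins themselves. Those for the chaperones of Rpl3, Rpl4 and Rpl10, *RRB1*, *ACL4* and *SQT1*, were -0.36 ± 0.08, -0.32 ± 0.05 and -0.24 ± 0.02, none of them called. In *ptc6* cells all 12 means were above 0, with a median of 0.20 and replicate medians of 0.21 and 0.20, and 0 were called. As a list they thus did not show the opposite replicate medians that the ribosomal proteins had. *MRT4* and *RLP7* themselves did change sign, at -0.11 and -0.01 in replicate 1 and 0.30 and 0.20 in replicate 2. The others of the 12 were above 0 in both replicates.

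Of the 19 tested regulators of ribosomal protein transcription, 0 were called lower in *ptc1 ptc6* cells. *YAK1*, a kinase that acts against growth, was higher, with a mean of 0.59 ± 0.03 (adjusted p = 0.0480). The factors that bind or activate the promoters had means of -0.32 ± 0.20 for *IFH1*, -0.16 ± 0.14 for *FHL1*, -0.19 ± 0.07 for *RAP1* and -0.04 ± 0.10 for *SFP1* in *ptc1 ptc6* cells, and none was called. In *ptc6* cells 0 of 19 regulators were called and the median was -0.02.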

How the data were processed

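Log2 ratios of mutant over wt per ORF were deposited by the authors, who labelled 8 µg of total RNA, left out spots under 120 µm or 150 units in Cy3 and Cy5, and pre-processed the ratios in GEPAS. The within-array normalization is not given in the sources used here. The base of the logarithm was taken as 2, the base that the study uses for expression changes, and no single-channel intensity was used. ORFs were named through the RefSeq gene table (assembly R64, 5662 of 6212 matched). Promoter motifs were planned but were not analysed here.

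Dye-swapped arrays were averaged to give 4 replicate means, and limma 3.58.1 (R 4.3.3) was run on these (group means, shared spread, two-sided, Benjamini-Hochberg over all ORFs, threshold 0.05), after the method was tested on simulated data. An ORF needed values on 2 of 4 arrays and in both replicates. p-values measure the spread between these samples, and labels do not state separate wt cultures. Members, lists, tests and alternatives were chosen with earlier results of these data known. Named were the P-protein genes, unpaired members, the 8 lowest and 8 highest members in *ptc1 ptc6* cells and the 4 lowest and 4 highest in *ptc6* cells (with values on at least 3 arrays of that mutant), the 6 most and 3 least different pairs, and called regulators, not all of which are reported here. Others are named for their role or were chosen after their values were seen. Alternatives changed the averaging of dyes, the centring, the filter, the dye orientation, the prior and the replicates used.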

Additional observations from a re-analysis of the deposited data

Results flagged for a closer look

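Among 84 groups of 4 arrays, 5 held a single array that stood apart, where chance gives 4.2. In *ptc1 ptc6* cells *RPL16A* was at -0.846 in experiment 4, against values between -0.579 and -0.569 on the others. The median of the members was -0.5475 in *ptc1 ptc6* experiment 2, apart from the -0.807 to -0.7655 of the others. In *ptc6* cells experiment 1 stood apart for 3 members, *RPP0* at -0.383 (others 0.228 to 0.319), *RPP1B* at -0.633 (others 0.054 to 0.193) and *RPL22A* at -0.702 (others 0.235 to 0.36).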

How the results depend on the processing

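The 2 replicates per mutant limit each value, and the wt spread is included only if each replicate had its own wt culture. Called members in *ptc1 ptc6* numbered 66, and between 55 and 67 over the alternatives that kept all replicates. Over all ORFs, 1321 were called with a random block and 916 with values on all 4 arrays, against 649. With 1 of its replicates left out, the median of the members in *ptc1 ptc6* was between -0.781 and -0.6668. Such a fit takes its spread from the other mutant alone, so its count of calls is not given. Called members in *ptc6* were 0 under each alternative, where between 0 and 10 ORFs were called in all. For the difference, the count of 0 became 61 with all 8 arrays and a random block, 55 with values on all 4 arrays, and 4 with the mutant in Cy5 only. The replicate numbers are not said to pair the sets, and the deviations of same-numbered replicates correlated at -0.209 across 4361 ORFs. With the number as a replicate block 40 members were called, and with the numbers crossed, an alternative added after the data were seen, 57 (268 and 482 ORFs in all, against 9). Leaving out shared values was also added then and changed no count of called members.

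The *ptc6* median was -0.0563 with the mutant in Cy3 and between -0.178 and 0.252 with a replicate left out. The median A to B difference in *ptc1 ptc6* was 0.1055 in Cy3, 0.0925 in Cy5 and between 0.0995 and 0.1257 for single replicates, and in *ptc6* 0.1065 in Cy3 and between 0.06225 and 0.0955 for single replicates. Members past 2-fold in *ptc1 ptc6* were 0 when each replicate had to pass, 0 after centring, and between 0 and 9 with a replicate left out. In *ptc1 ptc6*, *RPL22B* was at 0.0245 in Cy5, and *RPL36A* between -0.972 and 0.217 with a replicate left out. In *ptc6* with a replicate left out, *RPL39* lay between -0.4315 and 0.16, *RPL12B* between -0.3275 and 0.151, *RPL31B* between -0.2925 and 0.1245, *RPL26B* between -0.4015 and 0.2655, *RPL14B* between -0.0485 and 0.343, and *RPL17A* between -0.0385 and 0.3365. In Cy5 alone *RPL12B* was at 0.1005 and *RPL31B* at 0.1085, and in Cy3 alone *RPL17A* at -0.0495. The cause was not tested.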
